A study of Mus musculus with 43 samples.

Results

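The cadherin, protocadherin, semaphorin, plexin, Eph receptor and ephrin genes were followed in 4 laser-captured regions of the hypothalamus, called here the nuclei: ARC (arcuate), DMH (dorsomedial), PVN (paraventricular) and VMH (ventromedial). Members were all genes of the expression table whose symbol carries one of these family names, 77 of 10127 genes. They comprised 16 cadherins, 22 clustered protocadherins (all of the Pcdhb cluster), 11 other protocadherins, 10 semaphorins, 8 plexins, 7 Eph receptors, 2 ephrins and Plxna4os2, an RNA annotated antisense to Plxna4. A further 74 annotated genes with these names, among them most ephrins, were not analysed here. All mice were males with a paternal deletion of Snord116 (strain B6(Cg)-Snord116tm1.1Uta/J), the small nucleolar RNA cluster of the Prader-Willi region, on a C57BL/6J background and 17 to 19 weeks old. The mice were either ad libitum fed (6 mice) or fasted for 24 hours (6 mice). Both states carry the deletion, and wild-type libraries were not analysed here. The 41 libraries, 1 for each nucleus of a mouse, comprised 4 fasted and 5 fed from the ARC, 5 and 6 from the DMH, 5 and 5 from the PVN, and 6 and 5 from the VMH, and 9 mice gave all 4 nuclei.

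These families act at the cell surface. Cadherins and protocadherins join cells that carry the same molecule, and the clustered protocadherins are drawn from a tandem array in combinations that differ from neuron to neuron. Semaphorins are secreted or membrane-bound ligands that signal through plexins, in part with neuropilins as co-receptors, and ephrins are membrane-bound ligands of the Eph receptor tyrosine kinases. In the brain both systems steer axons during development and act at synapses and vessels in the adult.

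Levels are in CPM (reads of a gene per mega reads of its library). The depth behind the CPM values was inferred from the step between low values. It was 1.94 to 8.23 M reads a library (M, mega), with a median of 4.10 M. These are not the sequenced reads, for which the study reports a higher average per sample. Marker genes of each nucleus were highest where the labels placed them. The 2 measured ARC markers (Npy, Crabp1) summed to 324 to 1495 CPM in the ARC and to no more than 41.5 CPM elsewhere, and the 2 PVN markers (Avp, Crh) to 426 to 1600 CPM in the PVN and to no more than 10.04 CPM elsewhere. The 3 VMH markers (Fezf1, Sox14, Gpr149) reached 276 to 366 CPM in the VMH against at most 23.4 CPM elsewhere. The 4 DMH markers (Npvf, Hcrt, Pmch, Gpr50) reached 403 to 1096 CPM in the DMH and at most 118 CPM elsewhere, the highest in the ARC. Captured tissue holds many cell types, and fewer cells of a type cannot be told apart from less RNA in each cell.

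The sequences just upstream of 5 members are shown because these genes carry the nucleus differences described here, as an ephrin, a semaphorin and plexin pair, a further semaphorin and a protocadherin. Each is the 250 bases before the RefSeq start of the gene (GRCm38.p6), read 5′ to 3′ on the strand of the gene, with CG dinucleotides in capitals. The windows lie at chr17:62881318-62881567 on the minus strand for Efna5, chr9:57939862-57940111 on the plus strand for Sema7a, chr10:94944846-94945095 on the minus strand for Plxnc1, chr5:14025026-14025275 on the plus strand for Sema3e, and chr14:88471397-88471646 on the minus strand for Pcdh20.
Efna5: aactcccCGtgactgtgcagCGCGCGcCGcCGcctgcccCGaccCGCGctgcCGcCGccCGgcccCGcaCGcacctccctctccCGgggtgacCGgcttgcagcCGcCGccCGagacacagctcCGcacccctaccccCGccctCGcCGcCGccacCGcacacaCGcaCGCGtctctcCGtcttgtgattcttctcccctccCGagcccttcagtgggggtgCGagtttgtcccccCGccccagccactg
Sema7a: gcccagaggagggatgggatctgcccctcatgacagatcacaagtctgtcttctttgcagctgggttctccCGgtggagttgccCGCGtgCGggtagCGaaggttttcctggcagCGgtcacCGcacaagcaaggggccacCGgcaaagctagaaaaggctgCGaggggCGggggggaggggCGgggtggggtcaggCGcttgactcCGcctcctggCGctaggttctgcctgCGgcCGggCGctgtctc
Plxnc1: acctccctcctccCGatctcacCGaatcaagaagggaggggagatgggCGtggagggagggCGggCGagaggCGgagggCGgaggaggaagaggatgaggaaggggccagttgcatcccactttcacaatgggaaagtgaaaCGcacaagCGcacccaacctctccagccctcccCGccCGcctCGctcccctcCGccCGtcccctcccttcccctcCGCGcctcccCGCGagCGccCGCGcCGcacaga
Sema3e: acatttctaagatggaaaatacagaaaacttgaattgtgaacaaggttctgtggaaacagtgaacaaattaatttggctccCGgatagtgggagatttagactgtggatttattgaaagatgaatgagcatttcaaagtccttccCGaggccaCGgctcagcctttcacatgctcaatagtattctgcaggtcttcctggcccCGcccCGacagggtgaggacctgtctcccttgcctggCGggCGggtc
Pcdh20: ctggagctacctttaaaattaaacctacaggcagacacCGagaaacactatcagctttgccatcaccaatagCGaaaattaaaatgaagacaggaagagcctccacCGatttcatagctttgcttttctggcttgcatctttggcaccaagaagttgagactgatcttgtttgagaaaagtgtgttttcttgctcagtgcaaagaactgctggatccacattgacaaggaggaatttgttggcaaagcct
The Efna5 window held 32 CG dinucleotides, Plxnc1 22, Sema7a 17, Sema3e 7 and Pcdh20 3. The median was 6 over all 32851 such windows and 15 over the 47 windows of the 43 members that could be matched, so Efna5, Plxnc1 and Sema7a lay above both medians and Pcdh20 below both. None of the 5 contained AAGGTCA (a core element bound by nuclear receptors) or CAGGTG (an E-box) on either strand. AAGGTCA occurred in 4.08% of all windows and in 2 matched members (Cdh18 and Sema4b), and CAGGTG in 17.2% of all windows and in 4 matched members (Pcdh15, Plxnb2, Sema3d and Sema4f).

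Which members differ between the nuclei was asked first, within mice. In limma's F-test 49 of 77 members differed among the nuclei at an adjusted p under 0.1, against a background of 43% of the 10121 genes tested. All 11 other protocadherins and both ephrins differed, as did 6 of 7 Eph receptors, 8 of 10 semaphorins, 12 of 16 cadherins and 5 of 8 plexins. Of the 22 clustered protocadherins 5 differed, and the antisense RNA did not pass the test. How the counting used strand is not given in the sources used here, so reads of Plxna4os2 and Plxna4 cannot be told apart. Each nucleus was next set against the average of the remaining nuclei, and a difference of at least 1 on the log2 scale (a doubling of CPM + 0.5, or the reverse) with an adjusted p under 0.1 was called. By this rule 22 of 77 members gave 32 calls. The share of all genes called in any nucleus was not counted, so only the shares per nucleus are given below. Each call had the same sign in all 3 capture batches. The calls were made on the libraries of these batches, so the shared sign is not a separate test. The 4 comparisons use the same libraries, so they are not independent of each other. Over all members the median difference was -0.03 in the ARC, 0.08 in the DMH, -0.11 in the PVN and 0.08 in the VMH, against -0.0010, 0.02, -0.01 and -0.02 for all genes, and calls went in both directions in each nucleus.

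**Figure D1:**
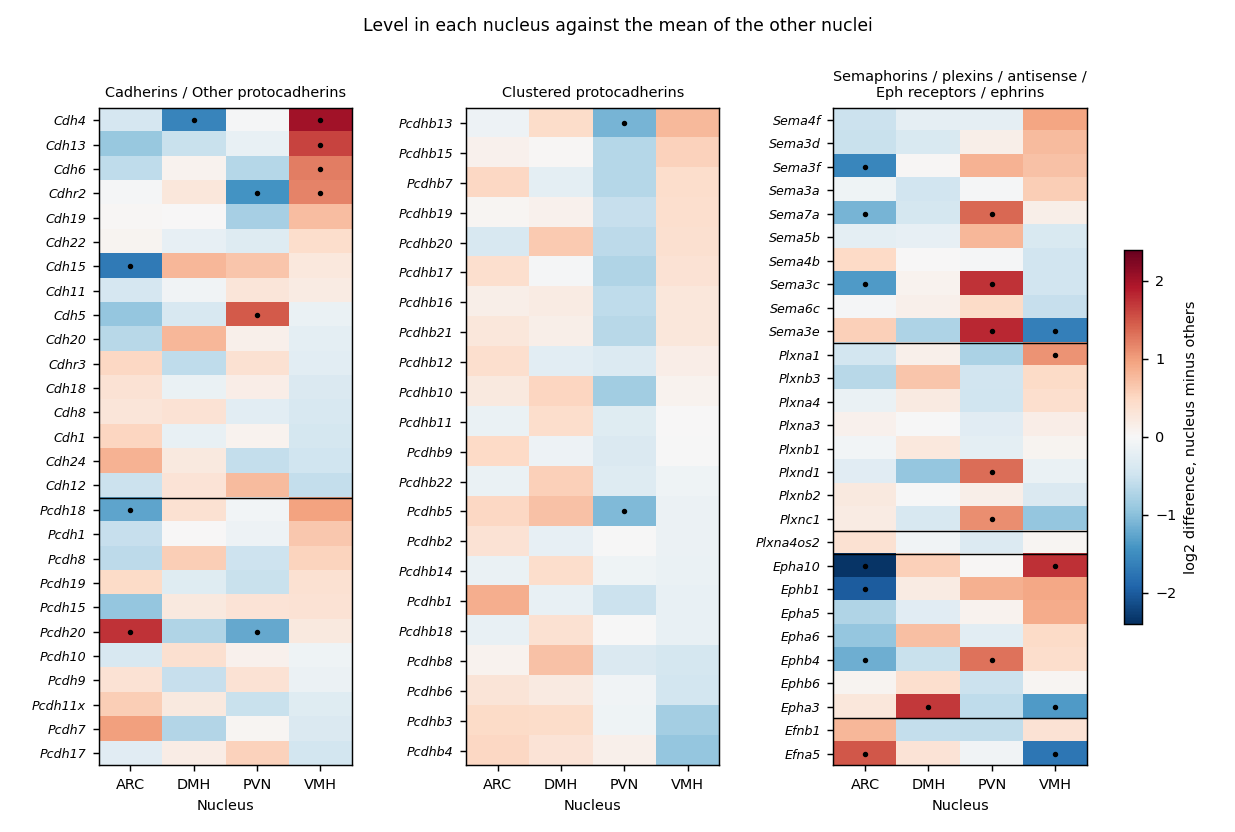
Difference of each member in each nucleus from the mean of the other nuclei, on the log2(CPM + 0.5) scale, with members in rows by family and nuclei in columns. Dots mark the 32 called differences. Cdh4 and Cdh13 stand out as high in the VMH, and most clustered protocadherins are low in the PVN.

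Compared per kilobase of exon, the most abundant members were the protocadherins Pcdh17 (42.1 CPM per kb, mean of all libraries) and Pcdh9 (31.5) and the plexin Plxnc1 (33.4). Sema4f led the semaphorins at 16.8, Cdh13 and Cdh18 the cadherins at 15.5 and 14.6, Efna5 the ephrins at 8.77 and Ephb1 the Eph receptors at 5.88. These means pool nuclei that differ, and the leading member was not the same in each. Cdh18 was above Cdh13 in the ARC (17.2 against 7.96 CPM per kb), DMH and PVN, and Cdh13 led in the VMH (30.4 against 11.8). Ephb6 led the Eph receptors in the ARC (5.5 against 1.81 for Ephb1) and the DMH (6.66 against 5.58), Plxna1 the plexins in the VMH (27.9 against 19.1 for Plxnc1), and in the ARC Pcdh9 was at 37.4 and Pcdh17 at 36.6. The clustered protocadherins were low one by one, from 0.534 to 4.33 CPM per kb. The SE of their nucleus differences was 0.18 to 0.48 on the log2 scale, against 0.06 for Pcdh17.

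Of the 16 cadherins, 4 were called higher in the VMH, where 4.12% of all genes were, while the family's median difference there was 0.02 with 8 members above 0 and 8 below. Cdh4 (R-cadherin, a classical cadherin, chr2:179442431-179899373) ran from 116 to 184 CPM in the VMH (median 161, n = 11). It ran from 19.7 to 60.6 in the ARC (median 42.2, n = 9), from 15.4 to 40.9 in the DMH (median 21.0, n = 11) and from 35.7 to 63.6 in the PVN (median 54.1, n = 10). Every VMH library was therefore above every other library, and the DMH was the lowest nucleus in 7 of the 9 mice with all nuclei. The log2 difference was 2.02 ± 0.13 (SE) in the VMH (limma, adjusted p = 4.1e-16) and -1.58 ± 0.13 in the DMH (adjusted p = 3.3e-12). Cdh13 (T-cadherin, which is anchored by a lipid and lacks the cytoplasmic tail of classical cadherins, chr8:118283733-119324921) had 284 to 413 CPM in the VMH (median 332), above the whole range of 60.5 to 194 CPM in the other nuclei. Its difference in the VMH was 1.62 ± 0.07 (limma, adjusted p = 1.9e-21), and it fell by 0.90 in the ARC, its lowest nucleus in 8 of 9 mice.

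Cdh6 (K-cadherin) and Cdhr2, a cadherin-related protein known from the links between microvilli, also rose in the VMH. Cdh6 averaged 20.7 ± 6.4 CPM (SD, n = 11) in the VMH and 8.23 to 11.7 CPM in the other nuclei, a log2 difference of 1.22 ± 0.25 (SE, limma, adjusted p = 0.00022). Cdhr2 averaged 13.0 ± 6.0 CPM in the VMH (log2 difference 1.19 ± 0.28) and 2.93 ± 1.59 CPM in the PVN, where it fell by 1.43. With these, members called higher in the VMH were Cdh4, Cdh13, Cdh6, Cdhr2, Epha10 and Plxna1, 6 of 77 against the same 4.12%. Members called lower there were Efna5, Sema3e and Epha3, 3 of 77 against 3.89% of all genes. Oligodendrocyte markers moved with the VMH as well: 5 of 7 measured were called higher there, and their summed level was 1129 to 1780 CPM against 246 to 780 in the ARC, 455 to 1587 in the DMH and 352 to 627 in the PVN. Of the mural and fibroblast markers 1 of 3 was also called higher in the VMH (median difference -0.19). The neuron list had a median difference of 0.33 there (0 of 3 called). Its summed level was 1424 to 1832 CPM in the VMH, 1044 to 1308 in the ARC, 1129 to 1690 in the DMH and 953 to 1321 in the PVN. The part of these lists in the VMH differences was not tested.

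Cdh5 (VE-cadherin, the junction cadherin of endothelial cells) was instead a PVN gene. It had 10.7 to 26.1 CPM in the PVN (median 16.0, n = 10), against 0.912 to 10.1 in the ARC, 1.29 to 19.7 in the DMH and 2.2 to 15.5 in the VMH. The PVN was the highest nucleus in 8 of 9 mice although the ranges overlapped, and the log2 difference was 1.47 ± 0.27 (SE, limma, adjusted p = 8.0e-05). Endothelial markers moved with it: 5 of 6 measured were called higher in the PVN, with summed levels of 217 to 372 CPM there and no more than 189 CPM in any other library. Ephb4 and Plxnd1, receptors best known from vessels and named here after their values were seen, were called higher in the PVN too, and the part of the endothelial RNA in these differences was not tested. The Ephb4 difference (1.3 ± 0.41) was 2.72, 0.92 and 0.78 within batches 1, 2 and 3. One PVN library, of a fed mouse of batch 1, had 23.9 CPM of Ephb4 against 0.551 to 5.34 in the other 9. Without that mouse the difference was 0.88 (limma, adjusted p = 0.13) and without batch 1 it was 0.84 (adjusted p = 0.18), and neither was called. With a pseudocount of 2 the difference was 0.80, again not called. Cdh15 (M-cadherin) was low everywhere and averaged 0.633 ± 0.582 CPM (SD, n = 9) in the ARC against 2.75 to 3.92 elsewhere (-1.7 ± 0.35).

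**Figure D2:**
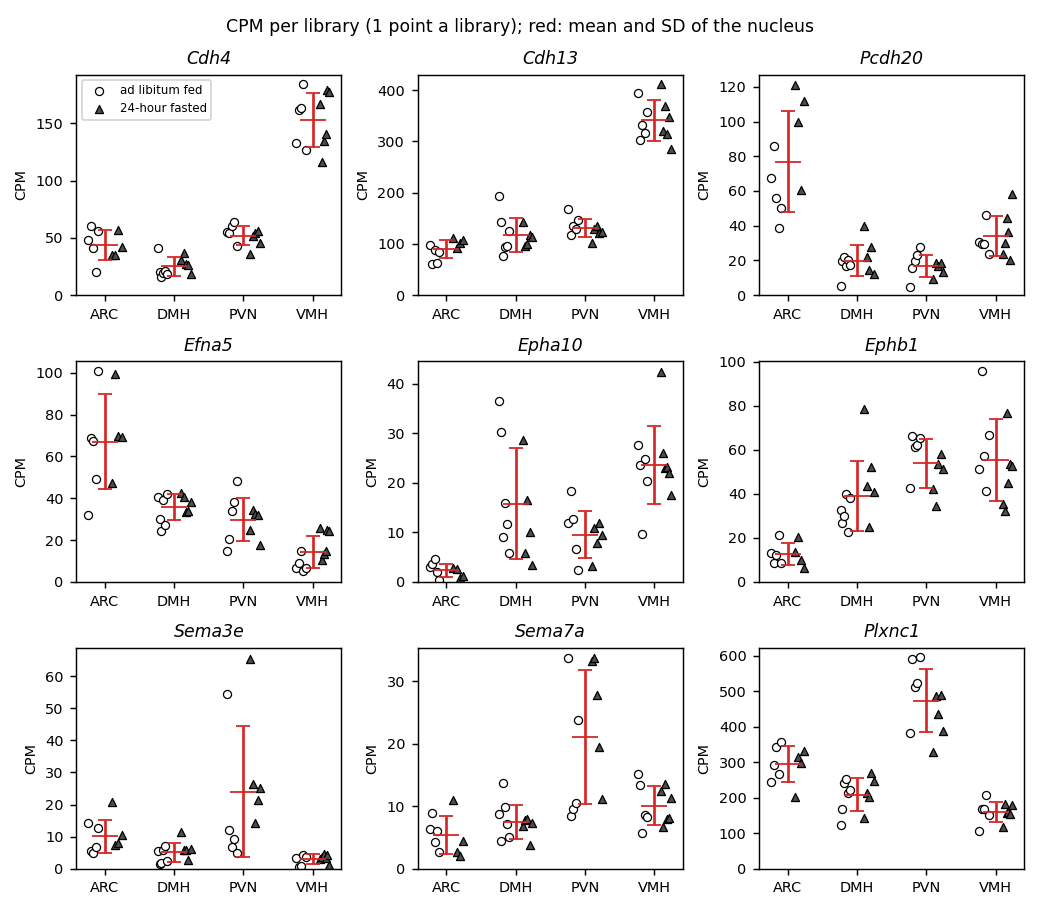
CPM of 9 members in each library by nucleus, with open circles for ad libitum fed and triangles for 24-hour fasted mice and red bars for the mean and SD of the nucleus. The VMH libraries lie above all others for Cdh4 and Cdh13, the ARC libraries lie below all others for Ephb1, and Efna5 steps down from the ARC to the VMH.

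The other protocadherins all differed among the nuclei, most by less than a doubling. Pcdh17 was highest in the PVN (717 ± 80 CPM, SD, n = 10, log2 difference 0.55 ± 0.06) and lowest in the VMH (419 ± 67, n = 11) and ARC (476 ± 84, n = 9). Pcdh9 averaged 254 ± 15 CPM in the ARC and 255 ± 48 in the PVN against 164 ± 26 in the DMH. Pcdh7 was chosen for mention after its values were seen: with 296 to 391 CPM, its ARC libraries lay above every library of the other nuclei (85.9 to 220.2), yet its log2 difference of 0.98 ± 0.08 fell just short of the size required. Pcdh18 was lowest in the ARC in all 9 mice (-1.27 ± 0.18).

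Pcdh20 (chr14:88464743-88471396), a protocadherin of the non-clustered group, gave the largest rise in the ARC. It had 38.6 to 121 CPM in the ARC (median 67.5, n = 9), 5.22 to 40.0 in the DMH, 4.89 to 27.8 in the PVN and 20.2 to 58.2 in the VMH. The log2 difference was 1.73 ± 0.21 (SE) in the ARC, where the gene was highest in 8 of 9 mice (limma, adjusted p = 2.5e-08), and -1.23 ± 0.20 in the PVN. Within batches 1, 2 and 3 the PVN difference was -2.26, -1.04 and -0.74, and without batch 1 it was -0.89 (adjusted p = 0.00029), short of the size required.

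The clustered protocadherins shared a pattern that few of them showed alone. In the PVN 21 of 22 lay below the mean of the other nuclei, with a median of -0.44 against -0.01 for all genes, and 2 (Pcdhb5 and Pcdhb13) were called, against 3.41% of all genes called lower there. Each of these calls was lost on leaving out either of 2 mice, with a difference of -0.99 or -0.95 for Pcdhb5 and of -0.95 or -0.87 for Pcdhb13, short of the size required. Both calls were also lost with a pseudocount of 2 (-0.72 for Pcdhb5 and -0.80 for Pcdhb13), and that of Pcdhb5 without the mouse block (-0.99). The genes of this array on chromosome 18 are related copies, so their summed level was also taken. In each library 100% of their values between 0.05 and 20 CPM were whole multiples of 1 read, within 0.06 of a read, so no read was split in fractions between copies among these values, although a whole read may still have been placed on the wrong copy. The sum was 108 to 162 CPM in the PVN (mean, 137 ± 17, SD, n = 10), 139 to 221 in the ARC (182 ± 30, n = 9), 102 to 218 in the DMH (185 ± 35, n = 11) and 143 to 215 in the VMH (179 ± 26, n = 11). The ranges overlapped between nuclei, but within mice the PVN was the lowest nucleus in 9 of 9, whereas the highest was the DMH in 6, the ARC in 2 and the VMH in 1. Each Pcdhb gene also overlaps the protein-coding genes Gm42416, Gm37013 and Gm37388 on the same strand, and Pcdhb21 and Pcdhb22 overlap each other. How reads shared by overlapping genes were counted is not given in the sources used here. The genes of the array are neighbours and are not 22 independent observations. The 3 measured neuron markers were also low in the PVN (median difference -0.44, 0 called), with summed levels of 953 to 1321 CPM there against 1044 to 1308 in the ARC, 1129 to 1690 in the DMH and 1424 to 1832 in the VMH. Endothelial markers were higher in the PVN, and the part of either list in the Pcdhb difference was not tested.

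**Figure D3:**
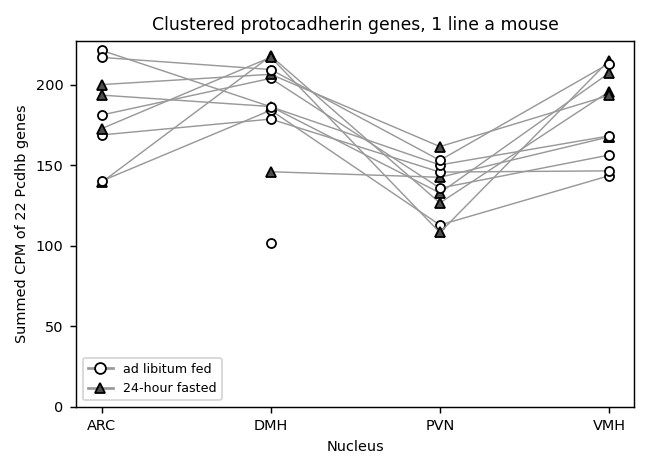
Summed CPM of the 22 Pcdhb genes by nucleus, with 1 line for each mouse, circles for ad libitum fed and triangles for fasted mice. Each line of the 9 mice with all 4 nuclei is at its lowest point in the PVN.

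The PVN was high in 3 semaphorins. Sema3e, Sema3c and Sema7a were called higher there together with Cdh5, Ephb4, Plxnd1 and Plxnc1, 7 of 77 members against 3.09% of all genes, while 4 (Cdhr2, Pcdh20, Pcdhb5 and Pcdhb13) were called lower, against 3.41%. Marker medians in the PVN were 1.31 for endothelial cells (5 of 6 called higher), -0.44 for neurons (0 of 3 called) and -0.67 for oligodendrocytes (0 of 7). They were -0.57 for mural cells and fibroblasts (1 of 3 called lower) and -0.54 for ependymal cells and tanycytes (1 of 2 called lower). The part of these lists in the PVN differences was not tested. Sema3c, a secreted semaphorin, had 11.5 to 46.6 CPM in the PVN (median 35.5, n = 10) and 0.844 to 18.0 in the ARC (median 6.26, n = 9). It was highest in the PVN in 9 of 9 mice, with a log2 difference of 1.74 ± 0.23 (SE, limma, adjusted p = 2.0e-07). Sema4f, a membrane semaphorin, differed from this pattern and was highest in the VMH in all 9 mice (134 ± 29 CPM, SD, n = 11, log2 difference 0.95 ± 0.12).

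Sema7a (chr9:57940112-57962865) is anchored to the membrane by a lipid, and its plexin receptor is Plxnc1 (chr10:94790866-94944835). The PVN was the highest nucleus for both. Sema7a had 8.39 to 33.7 CPM in the PVN (median 21.6, n = 10), 1.97 to 10.9 in the ARC, 3.77 to 13.7 in the DMH and 5.75 to 15.1 in the VMH. Plxnc1 had 330 to 597 CPM in the PVN (median 489), 201 to 359 in the ARC, 122 to 269 in the DMH and 106 to 207 in the VMH. The ligand overlapped between nuclei and was highest in the PVN in 6 of 9 mice, and the receptor was highest there in 9 of 9. Their log2 differences were 1.38 ± 0.24 (SE, limma, adjusted p = 3.1e-05) and 1.11 ± 0.07 (adjusted p = 1.5e-15). In the VMH the receptor fell by 0.92 while the ligand, at 0.14 ± 0.24, did not pass the test.

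Sema3e (chr5:14025276-14256689) binds Plxnd1 directly, without a neuropilin. It had 5.0 to 65.4 CPM in the PVN (median 17.9, n = 10), 5.02 to 20.7 in the ARC, 1.36 to 11.3 in the DMH and 0.518 to 4.50 in the VMH. Every PVN library exceeded every VMH library, although a pair of PVN libraries, both of batch 1, stood far above the other 8: 65.4 CPM in a fasted mouse and 54.3 CPM in a fed mouse, against 5.0 to 26.3. The log2 difference in the PVN was 1.82 ± 0.29 (SE, limma, adjusted p = 7.4e-06), with 3.10, 1.75 and 1.28 in batches 1, 2 and 3 and 1.5 (adjusted p = 0.00027) without batch 1. In the VMH it was -1.64 ± 0.29. Plxnd1 averaged 19.2 ± 6.4 CPM (SD, n = 10) in the PVN and 8.08 to 9.96 CPM elsewhere, and it too was highest in the PVN in 9 of 9 mice (1.34 ± 0.26). Among the A plexins, Plxna1, also named after its values were seen, was high in the VMH in all 9 mice (253 ± 46 CPM, SD, n = 11, against 94.8 to 152 elsewhere).

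Efna5, which encodes a ligand of the EphA receptors, was highest in the ARC and lowest in the VMH. Its transcript (ephrin-A5, gene at chr17:62604184-62881317) had 32.1 to 100.7 CPM in the ARC (median 68.7, n = 9), 24.5 to 42.6 in the DMH (median 38.4, n = 11), 14.6 to 48.2 in the PVN (median 32.3, n = 10) and 5.32 to 25.9 in the VMH (median 13.5, n = 11). It was highest in the ARC in 9 of 9 mice and lowest in the VMH in 8, with log2 differences of 1.49 ± 0.16 (SE, limma, adjusted p = 3.7e-09) and -1.73 ± 0.16 (adjusted p = 1.0e-11), while the DMH range lay within that of the PVN. The other measured ephrin, Efnb1, averaged 13.9 ± 4.8 CPM (SD, n = 9) in the ARC against 7.43 to 11.4 elsewhere (0.81 ± 0.32, adjusted p = 0.083), so it rose in the ARC by less than the size required.

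Several Eph receptors were low in the ARC. Epha10 (chr4:124880899-124917800), an EphA family member that lacks kinase activity, had 0.477 to 4.56 CPM in the ARC (median 2.68), 3.45 to 36.5 in the DMH, 2.38 to 18.3 in the PVN and 9.75 to 42.5 in the VMH. It was lowest in the ARC in all 9 mice (-2.36 ± 0.28, limma, adjusted p = 1.5e-08) and rose by 1.76 ± 0.26 in the VMH. Ephb1 (chr9:101922128-102354693), a receptor of the B ephrins whose locus also holds the protein-coding gene 9630041A04Rik on the other strand, had 6.44 to 21.1 CPM in the ARC and 22.7 to 95.6 CPM in the other nuclei, with no overlap (-2.0 ± 0.18, adjusted p = 1.4e-11). Epha5, named after its values were seen, averaged 54.7 ± 16.0 CPM (SD, n = 9) in the ARC and 122 ± 25 CPM (n = 11) in the VMH, where it was highest in 9 of 9 mice (0.89 ± 0.10). The summed level of the 7 Eph receptors was 69.3 to 124 CPM in the ARC, below every library of the other nuclei (137 to 361). Markers of several cell types moved with the ARC: the median difference was -0.44 for the neuron list (0 of 3 called), -0.63 for astrocytes (0 of 3), -0.80 for oligodendrocytes (2 of 7 called lower), -0.68 for endothelial cells (1 of 6 called lower) and 1.22 for ependymal cells and tanycytes (1 of 2 called higher). Of the mural and fibroblast markers 1 of 3 was called higher in the ARC (median difference 0.15). The part of these lists in the ARC differences was not tested. In the ARC, Pcdh20 and Efna5 were called higher (2 of 77 against 2.75% of all genes) and 8 members lower, Epha10, Ephb1, Ephb4, Sema3c, Sema3f, Sema7a, Cdh15 and Pcdh18 (against 3.15%). With a pseudocount of 2 instead of 0.5 the ARC count of 10 fell to 6, with the calls of Cdh15, Sema3f, Ephb4 and Sema7a lost. Cdh15, Sema3f and Ephb4 averaged 0.633, 0.849 and 0.686 CPM there, but Sema7a (-0.91 with this pseudocount) averaged 5.38 CPM. The ARC call of Ephb4 (-1.18) was lost on leaving out any one of 3 mice (-1.04 to -0.89) and without batch 1 (-1.04, limma, adjusted p = 0.12), and that of Sema7a (-1.11) on leaving out 1 mouse (-0.94).

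**Figure D4:**
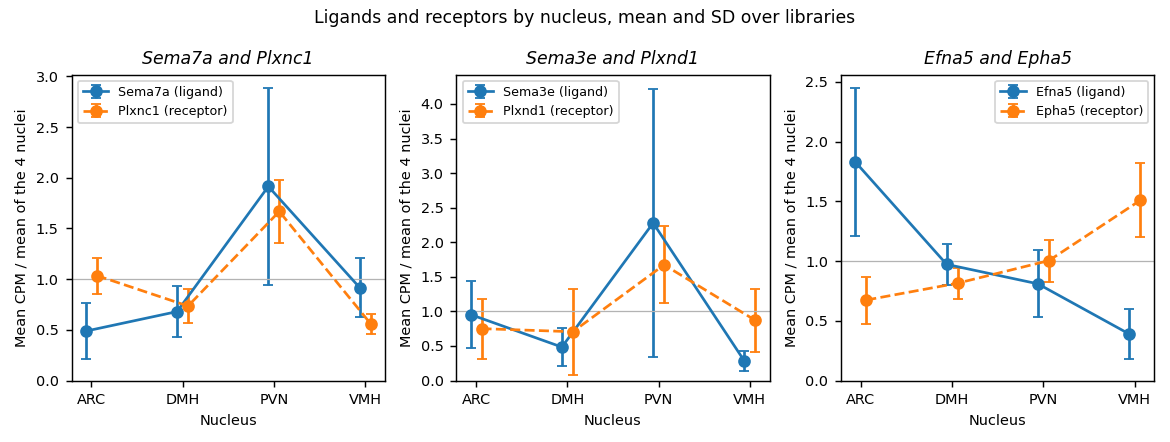
Mean CPM in each nucleus divided by the mean of the 4 nuclei, with SD over libraries, for Sema7a and Plxnc1, Sema3e and Plxnd1, and Efna5 and Epha5. Both genes of the first and of the second pair peak in the PVN, and in the third the ligand falls from the ARC to the VMH while the receptor rises. Epha5 was chosen after its values were seen, and another EphA receptor, Epha3, was lowest in the VMH as the ligand was.

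In the DMH, Epha3 was called higher (1 of 77 against 1.89% of all genes) and Cdh4 lower (1 of 77 against 1.05%). Epha3 was scarce, at 4.83 ± 3.63 CPM (SD, n = 11) in the DMH and no more than a mean of 1.88 CPM elsewhere, and it was highest in the DMH in 8 of 9 mice. Mural and fibroblast markers had a median difference of -0.96 in the DMH (1 of 3 called lower). For ependymal cells and tanycytes it was -0.73 (0 of 2 called). The part of these lists in the DMH differences was not tested.

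A list of 58 other genes of adhesion and axon guidance was also followed, chosen with earlier results of these data known. It included catenins, Fat and Celsr cadherins, neuropilins, collapsin response mediators, slits, netrins and their receptors. Of the 58 genes, 34 were measured and 27 differed among the nuclei, against 43% of all genes. In the VMH 2 were called higher (4.12% of all genes) and 3 lower (3.89%), led by Slit3, a secreted guidance ligand, at 102 ± 29 CPM (SD, n = 11) against 12.8 to 30.7 elsewhere (2.57 ± 0.18), and by Dchs1, a large cadherin that binds Fat proteins (-1.67 ± 0.21). In the ARC 1 was higher (2.75% of all genes) and 3 lower (3.15%), led by Slit2 (-1.60 ± 0.09) and Slit3 (-1.45 ± 0.19). In the PVN 1 was higher (3.09% of all genes) and 1 lower (3.41%), Fat1 (1.63 ± 0.11) and Ntng2 (-1.01 ± 0.36). In the DMH 1 was higher (1.89% of all genes) and 1 lower (1.05%), Ntng2 (1.97 ± 0.36) and Slit3 (-1.23 ± 0.18). The median difference of the 34 was -0.01 in the ARC, 0.07 in the DMH, 0.13 in the PVN and 0.02 in the VMH.

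Whether fasting changed these genes was asked in each nucleus, with batch as a covariate. No member passed the threshold in any nucleus. In limma's test 0 of 75 members were called in the ARC (background, 0.104% of all genes higher and 0.0725% lower), 0 of 74 in the DMH (0% and 0.0103%), 0 of 75 in the PVN (0.304% and 0.063%) and 0 of 75 in the VMH (0% and 0.0208%). Few genes of any kind were called, so these counts say little about the families. At an unadjusted p under 0.05 there were 4 members in the ARC (background, 8.1%), 6 in the DMH (6.62%), 10 in the PVN (9.97%) and 7 in the VMH (6.98%). The median change was -0.02 in the ARC, -0.01 in the DMH, -0.08 in the PVN and 0.07 in the VMH, against 0.02, 0.01, 0.01 and -5.2e-05 for all genes. The median SE over the members was 0.35 to 0.45, and changes of up to 1.58 and down to -1.38 were not called.

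**Figure D5:**
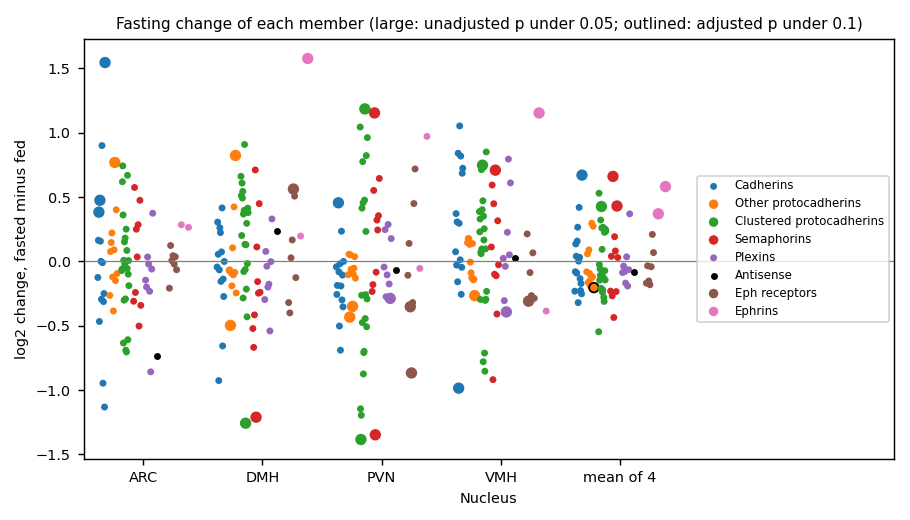
Change with fasting (fasted minus fed, log2 scale) of each member in each nucleus and over the 4 nuclei, colored by family. Large points had an unadjusted p under 0.05, and the 1 outlined point, Pcdh9 over the 4 nuclei, an adjusted p under 0.1.

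The smallest p values per nucleus are given as values. In the ARC, Pcdh20 was at 121, 99.5, 60.6 and 112 CPM in the 4 fasted mice and at 67.5, 85.7, 55.9, 38.6 and 50.0 CPM in the 5 fed mice. The groups overlapped through 1 fasted library (60.6 CPM), and the log2 change was 0.77 ± 0.21 (SE, limma, adjusted p = 0.27), with 0.84, 0.52 and 0.90 in batches 1, 2 and 3. Cdh18, a classical cadherin, was at 85.5 to 103 CPM fasted and at 58.2 to 87.8 CPM fed in the ARC (0.48 ± 0.17, adjusted p = 0.48).

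In the PVN, Sema3e was at 65.4, 26.3, 14.4, 21.4 and 25.2 CPM in the 5 fasted mice and at 54.3, 11.9, 6.90, 9.23 and 5.0 CPM in the 5 fed mice. Outside batch 1 every fasted library was above every fed one. The log2 change was 1.15 ± 0.31 (SE, limma, adjusted p = 0.20), with 0.27, 1.05 and 1.7 in batches 1, 2 and 3. Plxnc1 was at 330 to 489 CPM fasted and 382 to 597 CPM fed (-0.29 ± 0.10, adjusted p = 0.30), so the groups overlapped through 1 fed library (382 CPM), and the other 4 fed libraries were above every fasted one.

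In the VMH, Efna5 ran from 10.7 to 25.9 CPM in the 6 fasted mice and was at 6.69, 8.93, 14.9, 5.32 and 6.85 CPM in the 5 fed mice. Only 1 fed mouse (14.9 CPM) lay within the fasted range, and the log2 change was 1.15 ± 0.37 (SE, limma, adjusted p = 0.52). Cdh20 had a VMH change of -0.98 ± 0.40 (adjusted p = 0.65), with within-batch values from -0.12 to -2.03, and it was -0.50 without 1 fasted mouse of batch 3 (2.58 CPM). In the DMH, Efnb1 ranged from 3.62 to 37.0 CPM fasted and from 1.02 to 9.89 CPM fed (1.58 ± 0.56, adjusted p = 0.70). Its batch values were 2.66, -0.43 and 2.87, so the direction turned in batch 2.

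Over the 4 nuclei together 1 of 77 members passed the threshold, Pcdh9, a protocadherin of the non-clustered group, against a background of 1.52% of all genes higher and 1.66% lower. It averaged 245 ± 18 CPM fasted and 261 ± 9 fed in the ARC (SD, n = 4 and 5), 147 ± 8 and 179 ± 26 in the DMH (n = 5 and 6), 245 ± 59 and 265 ± 39 in the PVN (n = 5 and 5), and 174 ± 23 and 215 ± 32 in the VMH (n = 6 and 5). The fasted mean was the lower one in each nucleus, with overlapping ranges. The log2 change was -0.20 ± 0.06 (SE, limma, adjusted p = 0.075), and -0.11, -0.25 and -0.15 in batches 1, 2 and 3. The call was lost on leaving out any one of 7 of the 12 mice (3 fasted and 4 fed), with changes of -0.24 to -0.16 and adjusted p of 0.049 to 0.25 over the 12 omissions. At an unadjusted p under 0.05 there were 7 members, against 13.2% of all genes. Cell type markers in the same comparison gave 1 of 3 neuron markers called lower (median change -0.13), 1 of 3 astrocyte markers called higher (0.30), and 1 of 6 endothelial (0.09) and 1 of 3 mural and fibroblast markers (-0.49) called lower, and their part in the Pcdh9 change was not tested. Next after Pcdh9 was Sema3e, at 0.66 ± 0.24 (adjusted p = 0.17). Of the other adhesion and guidance genes 0 of 33 were called in any nucleus and 1 of 34 over the 4 nuclei, Fat3, a large atypical cadherin (-0.22 ± 0.06, adjusted p = 0.048).

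The test of whether the fasting change differed between nuclei called 0 of 77 members and 0% of all genes, with 5 members at an unadjusted p under 0.05 (background, 5.56%). The smallest p belonged to Pcdhb22 (F = 5.86, adjusted p = 0.58), a gene that overlaps Pcdhb21 on the same strand. Its DMH levels were 3.77 to 9.04 CPM fasted and 6.94 to 32.6 CPM fed (-1.26 ± 0.44), whereas in the PVN its change was 1.19 ± 0.47.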

How the data were processed

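Nuclei were laser-captured (on average 90 cryosections a brain), and 2 ng of RNA entered amplification by the Ovation RNA-Seq V2 system and single-end sequencing, with capture and library preparation in 3 batches. Per the submitters' processing notes and the study's methods, reads were mapped to GRCm38 (TopHat2 2.0.11, Cufflinks 2.2.1, CASAVA 1.7) and analysed with edgeR and limma. Study-wide, 8 outlier libraries were excluded by the authors before the values were made, which can lower the spread between replicates. The program that counted reads per gene is not given in the sources used here. The authors deposited CPM per Ensembl gene. Symbols came from GENCODE M21 (9891 of 10127 genes). The table held no identifier between ENSMUSG00000000861 and ENSMUSG00000028747, where 33 genes of these families lie. Of the 43 samples, 41 were matched to columns. The 2 columns without a matching sample were left out, and 2 samples were not analysed here.

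Depth was read from the step between low values, and 97.0% to 98.8% of these were whole multiples within 0.03 of a step. Whole reads were not recovered for all genes (101 held a positive value under 0.01 CPM), so no count test was run. Amplification means that reads do not stand for separate molecules. limma 3.58.1 (R 4.3.3) was fitted to log2(CPM + 0.5), which understates changes of low genes, for genes at 1 CPM or more in as many libraries as the smallest group. P values were 2-sided and adjusted by Benjamini-Hochberg over all genes tested, with a threshold of 0.1. Nuclei were compared with mouse as a block, since the same mouse gave several nuclei. Fasting was tested per nucleus with batch as a covariate, and over the 4 nuclei with mouse as a random block (consensus correlation, -0.00325). The fits were also run on simulated data without batch effects and with a smaller size threshold for nucleus differences. That run does not test the calling rule used here. The members, lists and the rule for named genes were chosen with earlier results of these data known. The rule named, per nucleus, the 4 largest called rises and 2 largest falls of at least 5 CPM, the most abundant member per kb of each family, the smallest fasting p values and Cdh5. Alternatives were other pseudocounts, no filter, median scaling, no block, no batch term and leaving out each mouse. A fit on batches 2 and 3 was added after seeing the data. Promoter sequences are from RefSeq.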

Additional observations from a re-analysis of the deposited data

Results flagged for a closer look

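In 12 of 160 groups of named members, 1 library stood apart from the rest of its group by Dixon's criterion, and chance gives about 8. That expected number takes no account of batch, although the groups mixed batches. All 12 libraries came from mice of batch 1 or from 1 mouse of batch 3. In the PVN of 1 fasted mouse of batch 1, Sema3e was at 65.4 CPM (others, 14.4 to 26.3), Cdh6 at 23.1 CPM (2.29 to 6.31) and Efnb1 at 22.7 CPM (4.24 to 9.16). In the PVN of 1 fed mouse of batch 1, Sema3e was at 54.3 CPM (others, 5.0 to 11.9) and Ephb1 at 42.7 CPM (61.4 to 66.3). The ARC library of the same mouse had Cdh5 at 10.1 CPM (4.61 to 6.01). In the DMH of the other fed mouse of batch 1, Cdh4 was at 40.9 CPM (15.4 to 21.0) and Pcdh20 at 5.22 CPM (16.6 to 22). In the DMH of 1 fasted mouse of batch 3, Pcdhb22 was at 9.04 CPM (3.77 to 5.29) and Sema7a at 3.77 CPM (6.79 to 7.90), and in its VMH, Sema4f was at 189.97 CPM (98.4 to 126.7). Epha10 was at 42.5 CPM in the VMH of another fasted mouse of batch 1 (17.5 to 26.0).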

How the results depend on the processing

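No result changed direction. Outside single-mouse omissions, 1 of the counts of called members moved by over 1.5 times: with a pseudocount of 2, members called in the ARC fell from 10 to 6, and all 6 were among the 10. With the same pseudocount the count fell from 11 to 8 in the PVN and from 9 to 7 in the VMH. Without the replicate block (mouse), 50 members differed among the nuclei, 47 of them shared with the 49 of the blocked fit, and 10, 2, 10 and 10 were called in the ARC, DMH, PVN and VMH, against 10, 2, 11 and 9. Fasted and fed groups share no mouse, so they could not be paired. On leaving out each mouse in turn, 44 to 52 members differed among the nuclei, and 9 to 12, 2 to 3, 9 to 11 and 9 to 13 were called in the 4 nuclei in the same order. Members changed by fasting over the 4 nuclei numbered 0 to 1, as Pcdh9 lost its call in 7 of 12 omissions (the cause was not tested), and 0 in each nucleus in every omission. On batches 2 and 3 alone, a choice made after seeing the data, 51 members differed among the nuclei (46 of the 49 among them), and Pcdh20 in the PVN was at -0.89. Of the calls 9 of 10 in the ARC, both in the DMH, 9 of 11 in the PVN and all 9 in the VMH were kept. Ephb4 lost its call in the ARC (-1.04) and the PVN (0.84) and Pcdh20 in the PVN, while 2, 0, 1 and 3 members were gained in the 4 nuclei. Low members were limited by depth, since 1 read was worth 0.121 to 0.515 CPM.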
